A study of Mus musculus with 27 samples.

Results

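The Hox genes, the clustered homeobox genes that carry positional identity along the body axis, were followed in differentiating 3T3-L1 cells. A probe set was a member when its only platform gene symbol was Hox followed by a, b, c or d and a number. That rule found 37 probe sets, each of a different gene, among the 21789 probe sets with a single symbol: 10 of the HoxA cluster, 9 of HoxB, 9 of HoxC and 9 of HoxD. By paralog number, 7 were anterior (paralogs 1 to 3), 14 central (4 to 8) and 16 posterior (9 to 13). The 3T3-L1 line is a mouse fibroblast line that becomes fat cells when it is given a hormone mixture. The series measured total RNA of these cells on 27 Affymetrix mouse gene arrays, in 9 groups of 3. All cells carried either the pMIG retroviral vector alone (vector cells) or the same vector with Flag-ISL1 (ISL1 cells); ISL1 is a LIM homeodomain transcription factor. At 2 days after confluence they received a mixture in medium with 10% fetal calf serum. It held 250 nmol/l dexamethasone, a glucocorticoid, 0.5 mmol/l isobutylmethylxanthine, which raises cAMP, insulin at 350 nmol/l and biotin at 400 nmol/l.

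Vector cells were labelled 0, 0.5, 1, 2, 4, 8 and 48 h and ISL1 cells 0 and 48 h, with 0 h taken just before the mixture. Isl1 was 7.37, 7.47 and 7.17 on the log2 scale in vector cells at 0 h, and 12.64, 12.62 and 12.61 in ISL1 cells. At 48 h this signal ran against the titles. The arrays labelled ISL1 read 7.48, 8.01 and 7.47, and the arrays labelled vector read 12.79, 12.76 and 12.72. Below, the former are called the low-Isl1 arrays (labelled ISL1) and the latter the high-Isl1 arrays (labelled vector), and no array was moved to another group. The sources used here do not say whether this probe set reads the construct's transcript. Which construct the 48 h arrays stand for rests on this reading. With the 48 h groups read as titled, 13 of 40 member values turned direction, 5 kept direction but did not pass and 22 held. Of the 13, 7 compare the 48 h groups with each other and turn by construction. Of the others, Hoxd4 against 0 h and Hoxd8 in the difference of the Isl1 effects between 48 h and 0 h passed. Those of Hoxa2, Hoxa10 and Hoxd3 did not pass.

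All values are log2 intensities, and differences are given with the standard error of the limma fit and an adjusted p, 3 arrays against 3. Members were counted as higher or lower at an adjusted p under 0.05. The array medians lay between 7.89 and 8.07. Centring the arrays on their medians kept 132 of the 146 member calls over all comparisons and lost 14. Of 10 fibroblast and preadipocyte markers 9 were measured, with a summed level of 16.37 to 16.42 in vector cells at 0 h and 15.57 to 15.63 in the low-Isl1 arrays at 48 h. Over the 27 arrays endothelial markers summed to 9.72 to 10.19, epithelial ones to 10.01 to 10.42 and skeletal muscle ones to 10.04 to 10.50. The submitters call the 3 arrays of a group biological triplicates without saying what was repeated, so the p-values measure the spread between these arrays. In bulk RNA, fewer cells of a type and less RNA per cell cannot be told apart. The record numbers of the arrays of 0 h, of 0.5 to 8 h and of 48 h lie in 3 separate runs. Whether they were also handled apart is not stated, so for a change from 0 h this and time cannot be told apart, and the same holds for the step from 8 to 48 h. The steps from 0.5 to 8 h lie within 1 run.

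Hox proteins bind short AT-rich DNA sites through their homeodomain, mostly together with cofactors of the PBX and MEIS families. In each of the 4 clusters the genes lie in the order in which they are expressed along the body, anterior paralogs towards one end and posterior paralogs towards the other. Fibroblasts and fat cell precursors keep the Hox code of the place they came from. The clusters also hold miRNA genes, among them miR-10 and miR-196, which are known to target Hox mRNAs.

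The sequences just before the starts of 4 genes are shown because 3 HoxD genes behaved alike and Hoxa2 behaved differently at 48 h, a choice made after their values were seen. They are RefSeq sequences on GRCm38.p6, 250 bases before the annotated start, on the gene's strand: Hoxd3 at chr2:74711743-74711992 (plus strand), Hoxd4 at chr2:74721728-74721977 (plus), Hoxd8 at chr2:74704365-74704614 (plus) and Hoxa2 at chr6:52164832-52165081 (minus). Capitals mark the nuclear receptor half-site AGGTCA or the PBX-HOX composite site TGATNNAT, searched on both strands.
Hoxd3: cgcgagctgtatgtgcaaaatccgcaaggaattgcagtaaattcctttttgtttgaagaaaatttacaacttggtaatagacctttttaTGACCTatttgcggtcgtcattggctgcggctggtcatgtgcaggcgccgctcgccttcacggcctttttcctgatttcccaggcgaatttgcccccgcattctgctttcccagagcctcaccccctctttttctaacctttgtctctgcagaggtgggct
Hoxd4: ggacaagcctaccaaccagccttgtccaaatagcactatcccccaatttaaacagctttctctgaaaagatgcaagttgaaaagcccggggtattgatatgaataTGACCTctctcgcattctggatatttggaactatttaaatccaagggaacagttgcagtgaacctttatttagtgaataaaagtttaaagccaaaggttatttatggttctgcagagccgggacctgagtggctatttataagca
Hoxd8: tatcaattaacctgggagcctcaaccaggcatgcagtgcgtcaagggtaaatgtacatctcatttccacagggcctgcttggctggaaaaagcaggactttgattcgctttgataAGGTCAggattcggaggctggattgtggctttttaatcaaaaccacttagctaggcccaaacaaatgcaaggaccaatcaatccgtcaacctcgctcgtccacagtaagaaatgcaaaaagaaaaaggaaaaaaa
Hoxa2: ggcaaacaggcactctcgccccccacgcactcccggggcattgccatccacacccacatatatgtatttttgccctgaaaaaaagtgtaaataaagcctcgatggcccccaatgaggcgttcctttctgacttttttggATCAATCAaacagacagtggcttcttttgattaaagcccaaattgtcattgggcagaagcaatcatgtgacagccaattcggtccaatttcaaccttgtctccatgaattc
A half-site AGGTCA was found in each of the 3 HoxD windows, starting at -161 in Hoxd3 and -145 in Hoxd4 on the opposite strand and at -135 in Hoxd8 on the gene's strand. Hoxa2 held none in this window but a composite site starting at -111 on the opposite strand. Windows were at hand for 21 of the 37 members. AGGTCA occurred in 6 of these genes and in 14% of all 32851 windows, and TGATNNAT in 3 of them and in 7.68% of all windows. The homeodomain core TAAT, which the composite site can contain, was found in 15 of the 21 genes and in 54.9% of all windows. The CCAAT box, written CCAAT, was found in 13 genes and in 33.8% of windows, the cAMP response half-site TGACG in 7 and in 17.8%, and the glucocorticoid half-site TGTTCT in 2 and in 16.1%. AGGTCA was also in the windows of Hoxb4, Hoxd10 and Hoxc4, the latter 2 of which passed no comparison, and CCAAT was in all 4 windows shown. These matches describe letters and not bound sites, and nothing about the 48 h values is drawn from them.

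The mature miRNAs of the clusters are shown because Mir10b, which overlaps the span of Hoxd4 in RefSeq, had a signal that changed. Capitals mark the seed, bases 2 to 8 from the 5′ end, in RefSeq sequences of the same build.
miR-10b-5p: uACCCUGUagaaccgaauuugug
miR-10a-5p: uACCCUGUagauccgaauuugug
miR-196a-5p: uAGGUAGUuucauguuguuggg
miR-196b-5p: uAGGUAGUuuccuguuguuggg
The miR-10 pair shares a seed and differs by U12A from miR-10a to miR-10b, and the miR-196 pair shares another and differs by A12C from miR-196a to miR-196b, positions counted from the 5′ end.

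The Hox response in vector cells was a fall that began at 1 h and was deepest at 2 to 4 h. From 4 to 8 h 8 members rose. In the low-Isl1 arrays at 48 h 8 members, of HoxA and HoxC, were below 0 h, beside 19.8% of all probe sets, and 4 members, 3 of HoxD and Hoxb4, were above it, beside 21.4%. Over 0 to 8 h, 18 of the 37 members passed the limma F test for any change, against 51% of all 21789 probe sets (75.7% of the members and 76.9% of all probe sets with estimated array weights). In both fits the share that changed was near the background. At 4 h each of the 18 was lower than at 0 h, beside 22.3% of all probe sets lower and 17.3% higher. By cluster the F test passed 7 of 10 HoxA, 3 of 9 HoxB, 4 of 9 HoxC and 4 of 9 HoxD members, and by position 5 of 7 anterior, 9 of 14 central and 4 of 16 posterior ones. The 4 posterior ones, Hoxa10, Hoxc9, Hoxc13 and Hoxd9, were the only posterior members with a group mean at or above the table's median. The other 12 lay below it in every group, and position apart from brightness was not tested. Of the 17 members whose mean over all arrays was at or above the table's median 15 were lower at 4 h, beside 35.3% of all probe sets that bright. Of the 20 dimmer members 3 were lower, beside 6.47%. In all, 16 members passed none of the 15 comparisons, and 14 of these were dimmer than the median; they include Hoxa9, Hoxa11, Hoxa13, Hoxb5, Hoxb6, Hoxc4, Hoxc10, Hoxd10 and Hoxd13. For them no difference between any groups compared was over 0.27.

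**Figure D1:**
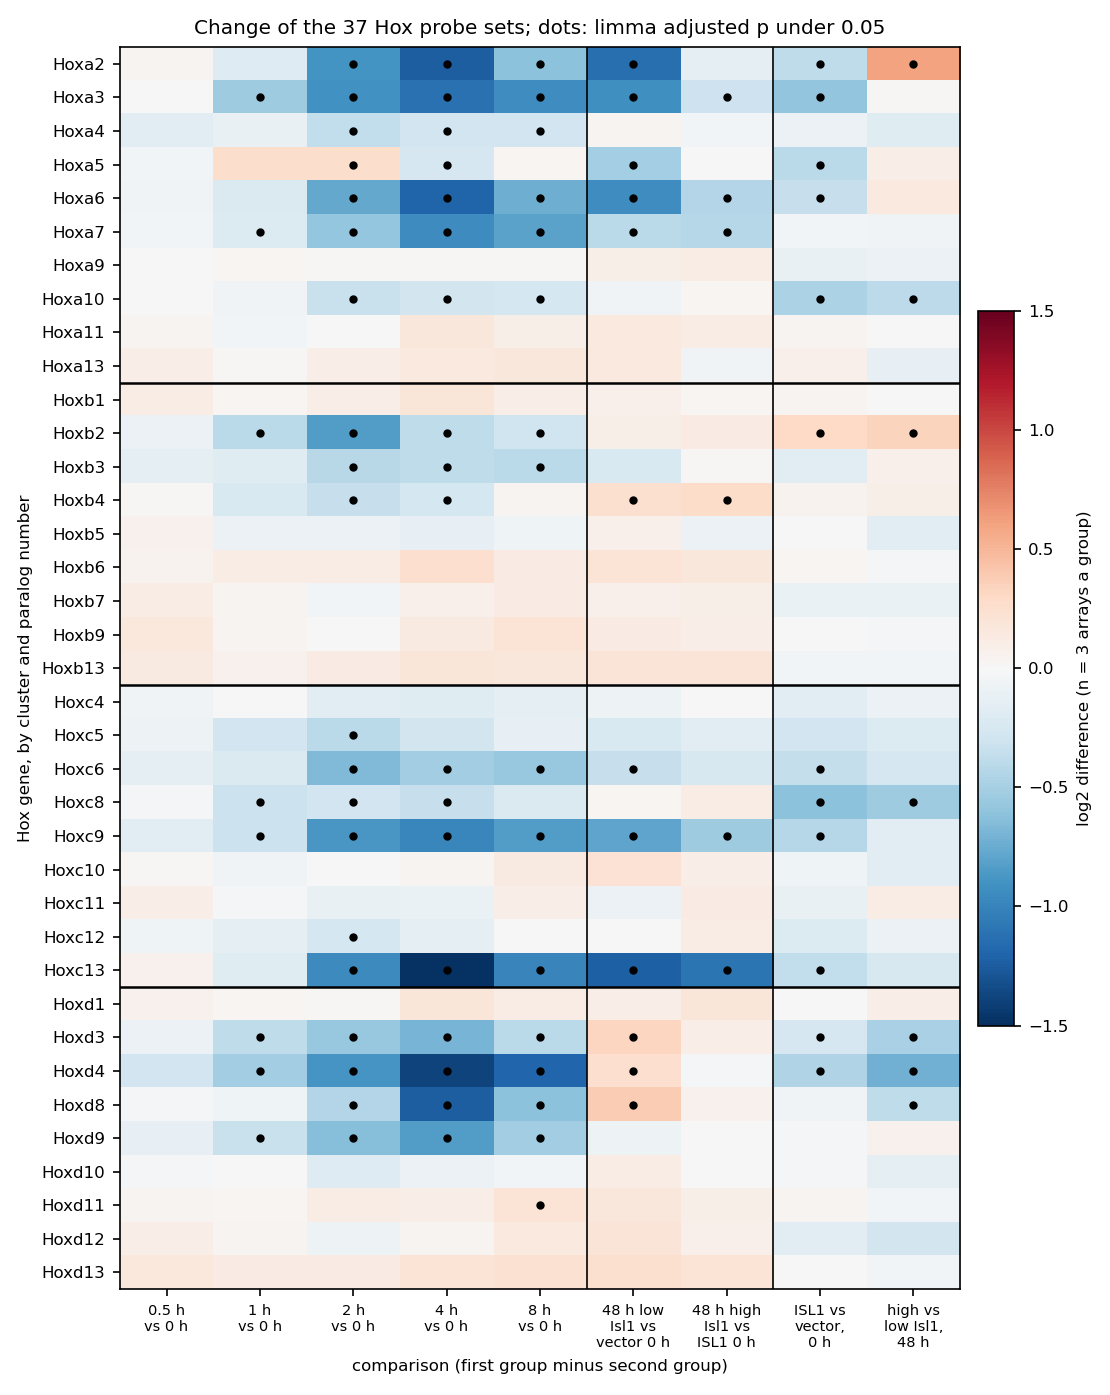
Log2 difference of each of the 37 Hox probe sets (rows, by cluster and paralog number) in 9 comparisons (columns; first group minus second, 3 arrays a group), blue for lower and red for higher. Dots mark an adjusted p under 0.05: in the 2, 4 and 8 h columns they lie on 19, 18 and 15 lower members and on 1, 0 and 1 higher ones.

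At 0.5 h no member passed the test, and 1.19% of all probe sets were called by limma. An unadjusted p under 0.05 was found for 2 of the 37 members and for 1341 of the 21789 probe sets. Estimated array weights called 1 member there, and no share of all probe sets is given for that fit. The nearest was Hoxd4, with 9.47, 9.23 and 9.28 against 9.72, 9.51 and 9.59 at 0 h, a difference of -0.28 (SE 0.0842, adjusted p = 0.149). All its 0.5 h arrays were below its 0 h arrays, but the difference did not pass the test over all probe sets.

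At 1 h 8 members were lower and none was higher, 21.6% of the 37 against 4.02% of all probe sets that were lower (6.73% were called in either direction). The median change was -0.06 over the members and -0.02 over all probe sets. Of the 8, 3 were HoxD, 2 HoxA, 2 HoxC and 1 HoxB. Hoxa3, needed for the thymus and parathyroid, read 9.27, 9.18 and 9.20 at 0 h and 8.50, 8.77 and 8.77 at 1 h. This is a fall of 0.53 (SE 0.09, adjusted p = 0.000166), to 69% of the 0 h level, with no overlap between the arrays. Hoxd4, which patterns neck vertebrae, read 9.05, 9.11 and 9.10 at 1 h. Its fall of 0.52 (SE 0.0842, adjusted p = 9.34e-05) put all 3 arrays below those of 0 h. Hoxb2, which acts in the hindbrain, read 8.88, 8.81 and 8.80 at 0 h and 8.35, 8.47 and 8.46 at 1 h, lower, with a difference of -0.40 (SE 0.0758, adjusted p = 0.000643). Hoxd3, a further gene of neck vertebrae, read 9.16, 9.05 and 9.25 at 0 h and 8.74, 8.71 and 8.87 at 1 h, lower, with a difference of -0.38 (SE 0.081, adjusted p = 0.00246). The arrays of both genes did not overlap between the times.

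The other 4 members lower at 1 h were Hoxd9, Hoxc9, Hoxc8 and Hoxa7, by -0.33 to -0.21. Hoxc8 and Hoxa7 just passed, with adjusted p = 0.0449 and 0.0434, and lost the call in 17 and 14 of the 27 fits without 1 array. Hoxc9 (-0.27, adjusted p = 0.0722) and Hoxd9 (-0.28, adjusted p = 0.0526) lost it without replicate 1 at 1 h. With arrays centred on their medians 5 members passed, and 4 passed in a fit of only the 2 groups. In the step from 0.5 to 1 h, within a run, Hoxa3, Hoxb2 and Hoxd3 passed (3.38% of all probe sets were called, 1.62% lower and 1.76% higher). Hoxd3 lost that call with the replicate block within the pair of groups, at adjusted p = 0.144, and in 16 of the 27 fits without 1 array (0.0515 to 0.256). Hoxb2 lost it without replicate 2 or 3 of 0.5 h or replicate 1 of 1 h (0.0623 to 0.0826), and without replicate 2 at 0.5 h 1 member was left. With only these 2 groups fitted no member passed.

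At 2 h 19 members were lower and 1 was higher, and 16.7% of all probe sets were lower and 10.8% higher (27.5% called). The members' median change was -0.27 against 0.0028 for all probe sets. All clusters took part, with 6 HoxA, 3 HoxB, 6 HoxC and 4 HoxD members lower. Of the 20 calls 18 had arrays that did not overlap. Non-overlap was not counted over all probe sets, so this count does not set the members apart. At 4 h 18 members were lower and none was higher, against 22.3% lower and 17.3% higher of all probe sets (39.6% called), with medians of -0.25 and 0.03. Without a threshold on the adjusted p, 21 members had an unadjusted p under 0.05 at 4 h, beside 9754 of the 21789 probe sets. Those beyond the 18 were Hoxc5, lower by a difference of -0.27, and Hoxb6 (0.25) and Hoxd1 (0.18), which were higher. Of the 18 members lower at 4 h, the lowest vector mean of 0 to 8 h lay at 4 h for 12 and at 2 h for 6.

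In the HoxA cluster, 7 of 10 members were lower at 4 h, Hoxa2 to Hoxa7 and Hoxa10. Hoxa2, which gives the second pharyngeal arch its identity, read 11.22, 11.10 and 11.17 at 0 h, 10.81, 11.05 and 11.04 at 1 h, 10.26, 10.19 and 10.34 at 2 h, 9.89, 9.94 and 9.96 at 4 h and 10.50, 10.66 and 10.49 at 8 h. From 2 h on all its arrays were below all those of 0 h, and the 4 h arrays were the lowest of the course. The difference was -0.90 at 2 h (SE 0.0709, adjusted p = 1.5e-10) and -1.23 at 4 h (adjusted p = 1.74e-13), 42.5% of the 0 h level.

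Hoxa3 read 8.33, 8.28 and 8.31 at 2 h (-0.91, SE 0.09, adjusted p = 1.01e-08) and 8.07, 8.23 and 7.99 at 4 h (-1.12). Hoxa6, which like Hoxa7 helps to pattern the thoracic vertebrae, read 9.99, 9.78 and 9.83 at 0 h and 8.55, 8.85 and 8.61 at 4 h, a difference of -1.20 (SE 0.0888, adjusted p = 2.22e-11). Hoxa7 read 9.98, 9.95 and 9.79 at 0 h and 8.88, 8.99 and 9.02 at 4 h, a difference of -0.94 (SE 0.0627). In these 3 genes the 4 h arrays lay below every array of 0, 0.5 and 1 h. Smaller falls at 4 h were those of Hoxa4 (-0.29), Hoxa10 (-0.28) and Hoxa5 (-0.25). Hoxa4 did not pass with quantile normalization (-0.21, adjusted p = 0.0714). Hoxa9, Hoxa11 and Hoxa13 did not pass, at 0.02 (95% interval -0.18 to 0.21) for Hoxa9.

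Hoxa5, known for its part in lung and axial skeleton, was the 1 member higher at 2 h. It read 9.50, 9.36 and 9.34 at 0 h, 9.47, 9.79 and 9.72 at 1 h and 9.66, 9.67 and 9.67 at 2 h. The 2 h arrays all lay above the 0 h arrays, by 0.26 (SE 0.0889, adjusted p = 0.0265). At 4 h they were 9.06, 9.24 and 9.16, below 0 h (difference -0.25, adjusted p = 0.0287) and below 2 h by a difference of -0.51 (SE 0.0889, adjusted p = 6.74e-05). The call at 2 h was lost (adjusted p = 0.0583 to 0.102, change 0.23 to 0.27) without replicate 2 or 3 of 0 h or any replicate of 2 h. The call at 4 h was lost (0.057 to 0.137) without replicate 1 of 0 h or replicate 1 or 3 of 4 h, and with arrays centred on their medians. The step between them kept its call in each alternative run.

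**Figure D2:**
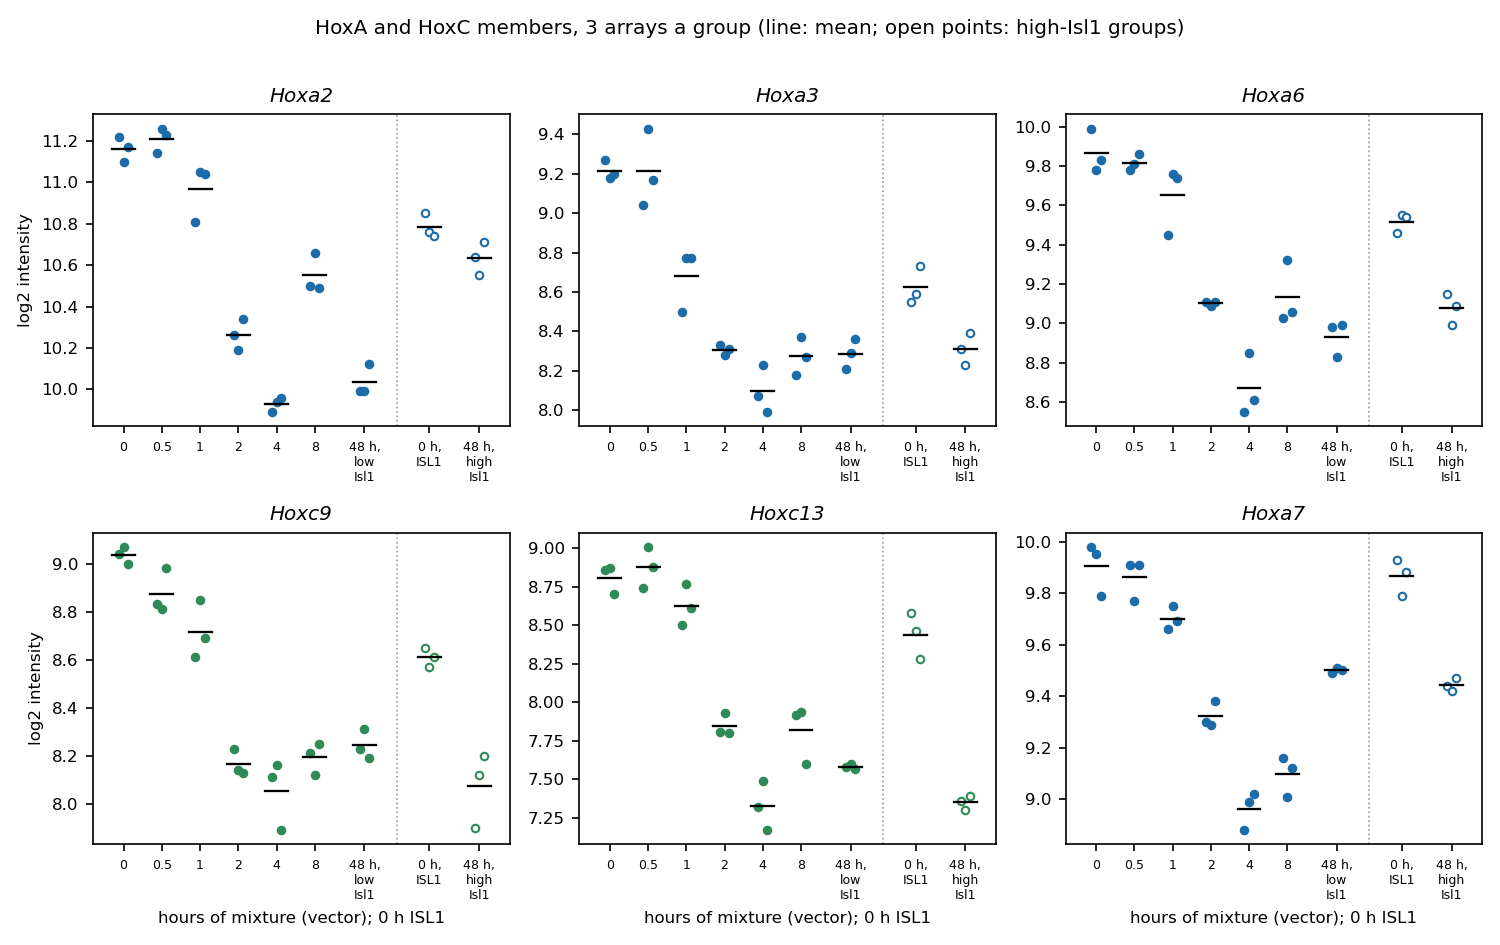
Log2 intensity of Hoxa2, Hoxa3, Hoxa6, Hoxc9, Hoxc13 and Hoxa7 in each of 27 arrays, by hours of mixture in vector cells, then the low-Isl1 arrays at 48 h (labelled ISL1), and right of the dotted line, as open points, ISL1 cells at 0 h and the high-Isl1 arrays at 48 h (labelled vector). Black lines are group means; the vertical axes differ. Hoxc13 fell from 8.70 to 8.87 at 0 h to 7.17 to 7.49 at 4 h.

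Among HoxC members 4 of 9 were lower at 4 h. Hoxc13, a regulator of hair keratin genes in follicles and nails, had the largest change of all members. It read 8.86, 8.87 and 8.70 at 0 h, 7.81, 7.93 and 7.80 at 2 h, 7.32, 7.49 and 7.17 at 4 h and 7.92, 7.94 and 7.60 at 8 h. Its arrays of 2, 4 and 8 h all lay below those of 0, 0.5 and 1 h. The difference was -0.96 at 2 h (SE 0.0972, adjusted p = 1.43e-08) and -1.48 at 4 h (adjusted p = 2.18e-12), 35.7% of the 0 h level.

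Hoxc9, which sets thoracic identity in spinal cord and vertebrae, read 9.04, 9.07 and 9.0 at 0 h and 8.11, 8.16 and 7.89 at 4 h, lower, with a difference of -0.98 (SE 0.0796, adjusted p = 1.24e-10). Hoxc6 was lower at 2 h by a difference of -0.66 (SE 0.0986) and at 4 h by a difference of -0.52, and its arrays did not overlap those of 0 h at either time. Hoxc8, a gene of the thoracic region, was lower at 4 h by a difference of -0.34 (adjusted p = 0.00556), and by a difference of -0.23 with adjusted p = 0.0684 without replicate 1 of 0 h, its highest array at 7.77. Hoxc5 (-0.40, adjusted p = 0.0151) and Hoxc12 (-0.27, adjusted p = 0.0361) passed at 2 h and not at 4 h. Hoxc5 lost the 2 h call without replicate 2 of 0 h or replicate 2 or 3 of 2 h (0.0657 to 0.156). Hoxc12 lost it without replicate 1 or 2 of 0 h or replicate 1 or 3 of 2 h (0.0982 to 0.218), with arrays centred on their medians and with only the 2 groups fitted. Hoxc4, Hoxc10 and Hoxc11 did not pass at any time.

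In HoxD, Hoxd3, Hoxd4, Hoxd8 and Hoxd9, which are neighbours in the cluster, were lower at 4 h, and the other 5 were not past the test. Hoxd4 read 8.84, 8.57 and 8.79 at 2 h, 8.22, 8.35 and 8.11 at 4 h and 8.34, 8.55 and 8.38 at 8 h, against 9.51 to 9.72 at 0 h. From 1 to 8 h no array reached the 0 h range, and the 4 h arrays had the lowest mean. The difference was -0.88 at 2 h (SE 0.0842, adjusted p = 5.54e-09) and -1.39 at 4 h (adjusted p = 5.28e-13), 38.3% of the 0 h level.

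Hoxd8, expressed in the trunk of the embryo, did not pass the test until 2 h. It read 10.34, 10.30 and 10.42 at 0 h, 10.16, 10.40 and 10.31 at 1 h, 9.97, 9.81 and 9.96 at 2 h, 9.07, 9.15 and 9.13 at 4 h and 9.62, 9.86 and 9.73 at 8 h. The arrays of 0 and 1 h overlapped, and those of 4 h lay below all others. Its difference from 0 h was -0.44 at 2 h (SE 0.0792, adjusted p = 8.15e-05) and -1.24 at 4 h (adjusted p = 1.38e-12). Hoxd3 read 8.61, 8.34 and 8.42 at 4 h (-0.70, SE 0.081), and Hoxd9, which acts in limb and lower trunk, read 8.46, 8.52 and 8.54 at 0 h and 7.63, 7.63 and 7.75 at 4 h (-0.84, SE 0.0777). In both genes the arrays of 0 and 4 h did not overlap. RefSeq's gene spans of Hoxd3 and Hoxd4 overlap, as do those of Hoxa3 with Hoxa4, Hoxa5 and Hoxa6 and of Hoxb3 with Hoxb4. The sources used here do not say which transcripts each set's probes hit, so shared signal between these neighbours was not tested.

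HoxB had the fewest members lower at 4 h, Hoxb2, Hoxb3 and Hoxb4. Hoxb2 was lowest at 2 h, at 8.02, 7.95 and 8.00, lower than 0 h by a difference of -0.84 (SE 0.0758, adjusted p = 2.01e-09). At 4 h it was back at 8.55, 8.45 and 8.36, higher than at 2 h by 0.46 (SE 0.0758, adjusted p = 3.22e-05), and its arrays of 2 and 4 h did not overlap. It was the 1 member that rose in the step from 2 to 4 h, in which 7 members fell (27.5% of all probe sets were called, 14% lower and 13.4% higher). Estimated array weights gave 3 higher and 10 lower in that step. No share of all probe sets is given for that fit, so these counts are not set against a background. Hoxb3 was lower at 4 h by a difference of -0.38 and Hoxb4 by a difference of -0.26, the latter (adjusted p = 0.0293) not past the test without replicate 3 of 0 h or replicate 1 or 3 of 4 h (0.127 to 0.177).

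Step by step, the largest share of members fell between 1 and 2 h: 13 fell and none rose, against 10.9% of all probe sets lower and 9.31% higher (20.2% called). Hoxc13 (-0.78), Hoxa2 (-0.71), Hoxc9 (-0.55) and Hoxa6 (-0.55) led it, and in each the arrays of the 2 times did not overlap. From 2 to 4 h the falls were led by Hoxd8 (-0.80, SE 0.0792), Hoxc13 (-0.52), Hoxa5 and Hoxd4 (-0.51 each). The step from 4 to 8 h ran the other way, with 8 members higher and none lower, against 13.3% of all probe sets higher and 10% lower (23.3% called). Hoxa2 rose by 0.62 (SE 0.0709, adjusted p = 2.6e-07), Hoxd8 by 0.62 (SE 0.0792, adjusted p = 1.35e-06), Hoxc13 by 0.50 (SE 0.0972) and Hoxa6 by 0.47 (SE 0.0888). Hoxd9, Hoxb4, Hoxd3 and Hoxa5 rose by 0.28 to 0.31. With arrays centred on their medians, or in a fit of only the 2 groups, 5 members were higher in this step.

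At 8 h 15 members were still lower than at 0 h and 1 was higher, beside 21.7% of all probe sets lower and 23.8% higher (45.6% called). All clusters were still represented, by 6 HoxA, 2 HoxB, 3 HoxC and 4 HoxD members lower. Hoxd4 had the largest difference, -1.18 (SE 0.0842, adjusted p = 8.85e-12), and Hoxc13 followed with -0.99 (SE 0.0972, adjusted p = 3.69e-09). Hoxa3 read 8.18, 8.37 and 8.27 (-0.94) and Hoxc9 8.21, 8.12 and 8.25 (-0.84), both with every array below those of 0 h. Hoxd11, a gene of the forearm, was the member higher, at 7.71, 7.77 and 7.63 against 7.45, 7.53 and 7.52 (0.20, SE 0.0804, adjusted p = 0.0417). Its call was lost (adjusted p = 0.0595 to 0.12, change 0.17 to 0.22) without any replicate of 0 h or replicate 1 or 2 of 8 h. Of the 9 fibroblast markers 3 were lower and 1 higher at 2 h, 6 were lower at 4 h and 7 at 8 h, with summed levels of 16.27, 16.12 to 16.13 and 15.95 to 15.98. Of the 10 adipocyte markers 9 were lower at 8 h, with a summed level of 14.13 to 14.23. The part of these markers in the Hox values was not tested.

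At 48 h the low-Isl1 arrays (labelled ISL1) were set against vector cells at 0 h. Of the 37 members 8 were lower and 4 higher, 21.6% and 10.8%, close to or under the 19.8% and 21.4% of all probe sets (41.2% called). The lower members were 5 HoxA (Hoxa2, Hoxa3, Hoxa5, Hoxa6 and Hoxa7) and 3 HoxC (Hoxc6, Hoxc9 and Hoxc13). The higher members were Hoxd3, Hoxd4, Hoxd8 and Hoxb4. No HoxD or HoxB member was lower and no HoxA or HoxC member was higher. The clusters were not compared with each other by a test.

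Hoxc13 read 7.58, 7.60 and 7.57 at 48 h, lower than at 0 h by a difference of -1.23 (SE 0.0972, adjusted p = 7.35e-11). Hoxa2 read 9.99, 9.99 and 10.12, lower, with a difference of -1.13 (SE 0.0709, adjusted p = 7.53e-13). Hoxa6 (8.98, 8.83 and 8.99) and Hoxa3 (8.21, 8.29 and 8.36) were each lower, with a difference of -0.93. For these 4 genes every 48 h array lay below every 0 h array.

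Hoxd8 read 10.77, 10.54 and 10.90 at 48 h, higher than at 0 h by 0.38 (SE 0.0792, adjusted p = 0.000262). Hoxd3 read 9.50, 9.46 and 9.49, higher by 0.33 (SE 0.081, adjusted p = 0.00181). Hoxd4 read 9.92, 9.96 and 9.73, higher by 0.26 (SE 0.0842, adjusted p = 0.0152). In these 3 genes the 48 h arrays were the highest of all 27, and did not overlap those of 0 h. Hoxd4 lost the call without replicate 2 of 0 h and without replicate 1 or 2 of the low-Isl1 arrays (0.21 to 0.23, adjusted p = 0.0556 to 0.0853). Hoxb4, studied for the growth of blood stem cells, read 7.90, 7.82 and 7.91 against 7.54, 7.60 and 7.79 (0.24, adjusted p = 0.0448), and lost the call in 11 of the 27 fits without 1 array.

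In the step from 8 h to the low-Isl1 arrays 8 members were higher and 2 lower (30.2% of all probe sets called, 15.7% higher and 14.6% lower). The 4 largest rises were those of HoxD genes. Hoxd4 rose by 1.44 (SE 0.0842, adjusted p = 3.69e-13), to 272% of its 8 h level, Hoxd8 by 1.00 (SE 0.0792), Hoxd3 by 0.73 (SE 0.081) and Hoxd9 by 0.45 (SE 0.0777). Hoxa5, at 9.01, 8.80 and 8.87, and Hoxa2 were lower than at 8 h, by -0.54 (SE 0.0889, adjusted p = 2.58e-05) and -0.52 (SE 0.0709, adjusted p = 1.63e-06). All 3 arrays of each fell outside the 8 h range.

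**Figure D3:**
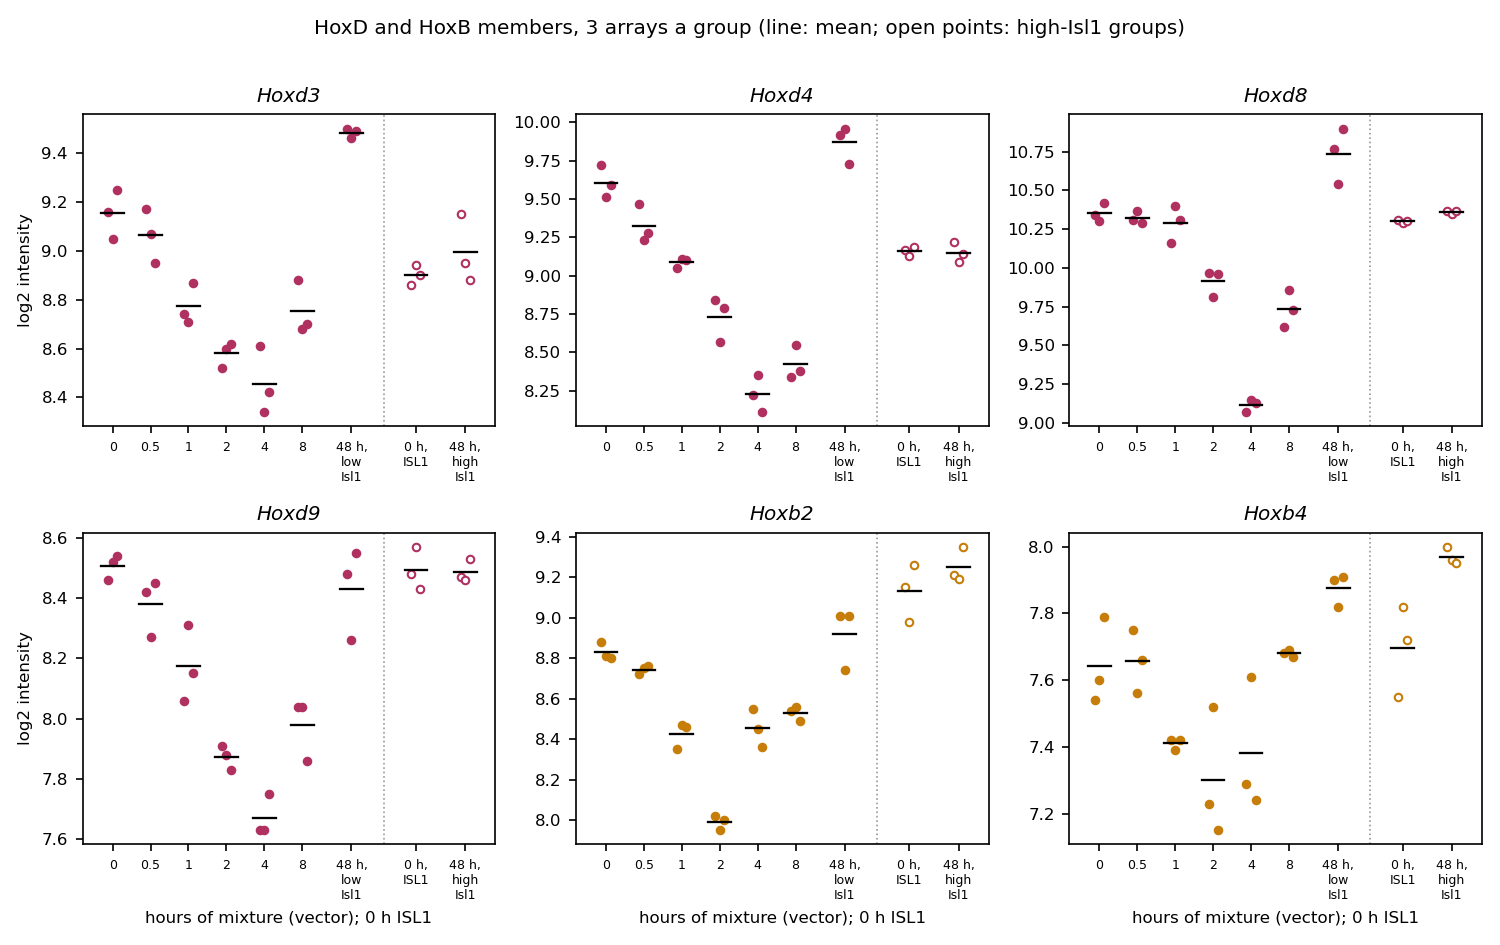
Log2 intensity of Hoxd3, Hoxd4, Hoxd8, Hoxd9, Hoxb2 and Hoxb4 in each of 27 arrays, by hours of mixture in vector cells, then the low-Isl1 arrays at 48 h (labelled ISL1), and right of the dotted line, as open points, ISL1 cells at 0 h and the high-Isl1 arrays at 48 h (labelled vector). Black lines are group means; the vertical axes differ. Hoxd4 was 8.11 to 8.35 at 4 h and 9.73 to 9.96 in the low-Isl1 arrays at 48 h.

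At 48 h 9 of 10 adipocyte markers were higher in the low-Isl1 arrays than in vector cells at 0 h, with a summed level of 15.69 to 15.78 against 14.45 to 14.53, and all 9 fibroblast markers were lower. Of 7 measured blood cell markers, Lyz2, named after its values were seen, a macrophage lysozyme gene, was lower, with a difference of -4.49 (SE 0.0867), at 7.57 ± 0.11 (SD, n = 3) against 12.05 ± 0.0392. The list's summed level was 10.33 to 10.40 against 12.31 to 12.39. Cd68, a macrophage marker likewise named after its values were seen, was higher by 0.63 (SE 0.0797), and the other 5, Ptprc, Adgre1 and Csf1r among them, did not pass the test. The part of these markers in the Hox differences was not tested. With the 48 h groups read as titled, Hoxd4 is lower than at 0 h by a difference of -0.46. Hoxd3 (-0.16, adjusted p = 0.134) and Hoxd8 (0.0076) then do not pass.

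The high-Isl1 arrays at 48 h (labelled vector) were set against ISL1 cells at 0 h. Of the 37 members 5 were lower and 1 higher (33.5% of all probe sets called, 18.8% lower and 14.8% higher). The lower members were of HoxA (Hoxa3, Hoxa6 and Hoxa7) and HoxC (Hoxc9 and Hoxc13), and no HoxD member passed. Hoxc13 fell from 8.58, 8.46 and 8.28 to 7.36, 7.30 and 7.39, by -1.09 (SE 0.0972, adjusted p = 8.94e-10). Hoxc9 fell from 8.65, 8.57 and 8.61 to 7.90, 8.12 and 8.20, by -0.54 (SE 0.0796, adjusted p = 4.73e-06). Neither gene's arrays overlapped between the groups.

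Hoxa6 was lower, with a difference of -0.44 (SE 0.0888), from 9.46, 9.55 and 9.54 to 9.15, 8.99 and 9.09, and Hoxa7 by a difference of -0.42 (SE 0.0627), from 9.93, 9.79 and 9.88 to 9.44, 9.42 and 9.47. Hoxb4 was higher by 0.27 (SE 0.0941, adjusted p = 0.0256), at 8.00, 7.96 and 7.95 against 7.55, 7.82 and 7.72. The arrays of these 3 genes did not overlap between the groups. Hoxb4 lost the call (adjusted p = 0.0509 to 0.166, change 0.20 to 0.28) without replicate 1 of ISL1 cells or replicate 1 or 2 of the high-Isl1 arrays. Hoxa3 lost it without replicate 3 of ISL1 cells (-0.26, adjusted p = 0.0536). At 48 h 7 of 9 fibroblast markers were lower and 1 higher, and all 10 adipocyte markers were higher, at 14.60 to 14.73 against 13.29 to 13.36 in ISL1 cells at 0 h. The part of these markers was not tested. Read as titled, the Hoxb4 change is 0.181 (adjusted p = 0.127), and the arrays labelled ISL1 at 48 h gave 6 members higher and 7 lower than ISL1 cells at 0 h. No share of all probe sets is given for that reading, so these counts are not set against a background.

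Before the mixture, ISL1 cells had lower levels of 11 members than vector cells and a higher level of 1, 29.7% and 2.7% of the 37, beside 10.2% and 15.4% of all probe sets (25.6% called). The median difference was -0.10 over the members and -0.01 over all probe sets. The lower ones were 5 HoxA, 4 HoxC and 2 HoxD genes. For all 12 the arrays did not overlap, which was not counted over all probe sets. Hoxc8 had the largest difference, with 6.90, 6.98 and 6.91 in ISL1 cells against 7.77, 7.60 and 7.30 in vector cells (-0.62, SE 0.097, adjusted p = 1.64e-05). Hoxa3 read 8.55, 8.59 and 8.73 in ISL1 cells, lower, with a difference of -0.59 (SE 0.09, adjusted p = 1.12e-05). Every ISL1 array of both genes lay below every vector array.

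Hoxa10, which patterns the lumbar spine and the uterus, read 7.73, 7.70 and 7.89 in ISL1 cells against 8.13, 8.30 and 8.32, lower, with a difference of -0.47 (SE 0.0797, adjusted p = 4.59e-05). Hoxd4 read 9.17, 9.13 and 9.19, lower than in vector cells by a difference of -0.45 (SE 0.0842, adjusted p = 0.000178). Hoxb2 was the member higher in ISL1 cells, at 9.15, 8.98 and 9.26 against 8.88, 8.81 and 8.80 (0.30, SE 0.0758, adjusted p = 0.00321). The remaining lower members, Hoxc9, Hoxa5, Hoxa2, Hoxc13, Hoxc6, Hoxa6 and Hoxd3, had differences of -0.43 to -0.25. Hoxc6 lost the call without replicate 1 of ISL1 cells (-0.25, adjusted p = 0.0847), and Hoxd3 (-0.25 to -0.21, 0.0513 to 0.114) without replicate 1 or 3 of either group. In ISL1 cells at 0 h all 10 adipocyte markers were lower, with a summed level of 13.29 to 13.36, and 7 of 9 fibroblast markers, with 16.06 to 16.09. Of 7 measured blood cell markers, Lyz2 was lower, with a difference of -4.84, and the other 6 did not pass the test. The part of these markers in the Hox differences was not tested.

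At 48 h the high-Isl1 arrays (labelled vector) had 5 members lower and 2 higher than the low-Isl1 arrays (labelled ISL1), against 13.9% of all probe sets lower and 14% higher (27.9% called). The lower ones were Hoxd4, Hoxc8, Hoxd3, Hoxa10 and Hoxd8, and the higher ones Hoxa2 and Hoxb2. Hoxd4 read 9.22, 9.09 and 9.14 against 9.92, 9.96 and 9.73, lower, with a difference of -0.72 (SE 0.0842, adjusted p = 2e-07). Hoxa2 read 10.64, 10.55 and 10.71 against 9.99, 9.99 and 10.12, higher by 0.60 (SE 0.0709, adjusted p = 2.02e-07). Neither overlapped.

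Hoxc8 read 6.92, 7.17 and 7.06 against 7.54, 7.73 and 7.50, lower, with a difference of -0.54 (SE 0.097, adjusted p = 9.14e-05). Hoxd3 read 9.15, 8.95 and 8.88 against 9.50, 9.46 and 9.49, lower, with a difference of -0.49 (SE 0.081, adjusted p = 3.46e-05). Hoxb2 read 9.21, 9.19 and 9.35 against 9.01, 8.74 and 9.01, higher by 0.33 (SE 0.0758, adjusted p = 0.00119). Again no arrays overlapped between the groups. All 10 adipocyte markers were also lower in the high-Isl1 arrays, and 3 of 9 fibroblast markers were lower and 1 higher. Of 7 blood cell markers 2 were lower, Lyz2 among them with a difference of -0.81 (SE 0.0867), and 5 did not pass the test. The part of these markers was not tested. The 7 Hox directions are those of the Isl1 reading and turn over when the groups are read as titled.

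The comparisons of Isl1 at 0 h and at 48 h share no array. Of the 12 members past the test at 0 h, 5 passed in the same direction at 48 h: Hoxa10, Hoxc8, Hoxd3 and Hoxd4 lower and Hoxb2 higher (41.7%, beside 31.5% of the 5577 probe sets called at 0 h). Hoxa2 alone passed in the opposite direction (8.33%, beside 23.1%), and 6 did not pass at 48 h (50%, beside 45.5%). The difference between both effects was itself tested: 4 members were higher and 1 lower at 48 h than at 0 h, beside 11.4% and 13.1% of all probe sets (24.5% called). The 4 were Hoxa2, Hoxa3, Hoxa5 and Hoxa6, and Hoxa4, which lies among them, did not pass. The Isl1 effect on Hoxa2 was -0.38 at 0 h and 0.60 at 48 h, a difference of 0.99 (SE 0.1, adjusted p = 2.39e-08).

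For Hoxa3 the effect was -0.59 at 0 h and 0.02 at 48 h (95% interval -0.17 to 0.21), a difference of 0.61 (SE 0.127, adjusted p = 0.000539). Hoxa5 and Hoxa6 had effects of -0.40 and -0.35 at 0 h and of 0.10 and 0.14 at 48 h, with differences of 0.51 (SE 0.126, adjusted p = 0.00309) and 0.49 (SE 0.126, adjusted p = 0.00392). Read as titled, the differences are 0.301 for Hoxa5 (adjusted p = 0.0775) and 0.205 for Hoxa6 (adjusted p = 0.262), and neither passes. Those of Hoxa2 and Hoxd8 then turn, to -0.222 (adjusted p = 0.108) and 0.431 (adjusted p = 0.0041). Hoxa3 stays higher, at 0.572 (adjusted p = 0.000975). The effect on Hoxd8 was -0.05 at 0 h and -0.38 at 48 h, a difference of -0.32 (SE 0.112, adjusted p = 0.0368). That last call was lost in 10 of the 27 fits without 1 array, those without replicate 1 or 2 of vector 0 h, 1 or 3 of the low-Isl1 arrays or any of the other 2 groups (adjusted p = 0.0551 to 0.138, change -0.33 to -0.24), and with arrays centred on their medians or only these groups fitted.

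**Figure D4:**
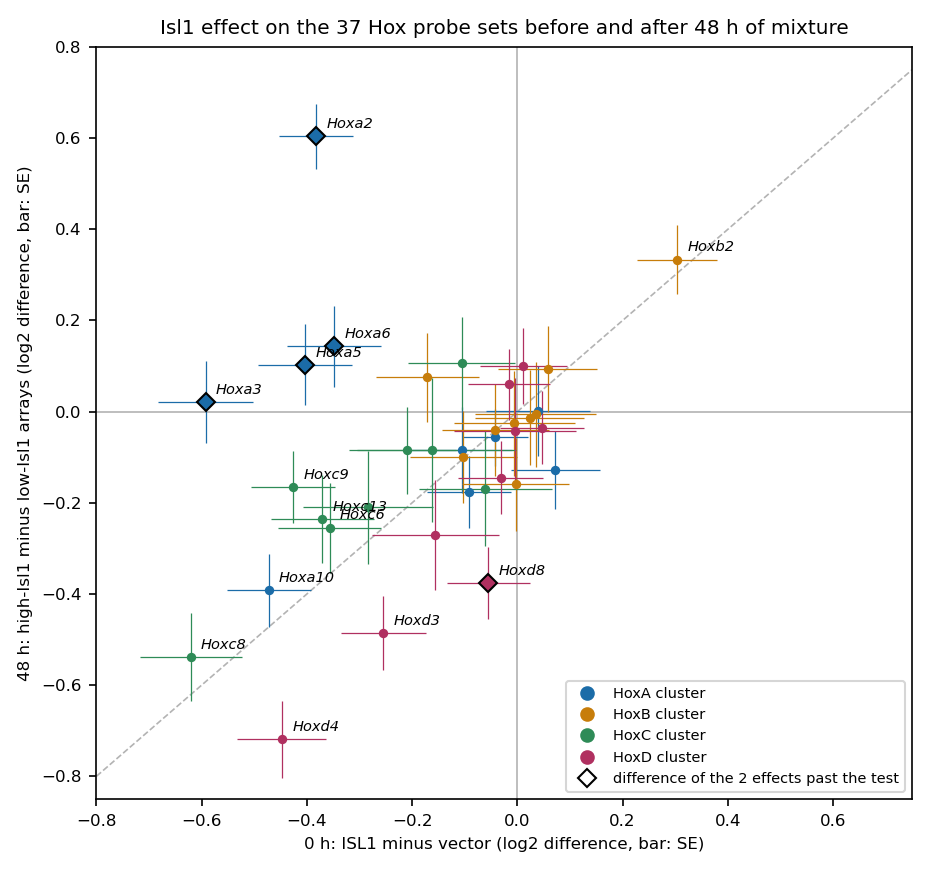
Isl1 effect on each of the 37 Hox probe sets (points, coloured by cluster; bars are standard errors) at 0 h, ISL1 minus vector cells (horizontal axis, log2), and at 48 h, high-Isl1 minus low-Isl1 arrays (vertical axis, log2). The dashed line marks equal effects. Diamonds mark the 5 members whose effects differed, with Hoxa2 at -0.38 and 0.60 farthest from the line.

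The TALE homeobox genes, whose products are the cofactors of Hox proteins, were measured for 10 of 11 genes of the list. At 2 h 3 were lower and 1 higher, beside 16.7% and 10.8% of all probe sets. At 4 h 5 were lower and 2 higher, beside 22.3% and 17.3%. At 8 h 6 were lower and none higher, beside 21.7% and 23.8%, and in the low-Isl1 arrays at 48 h 7 and none, beside 19.8% and 21.4%. Meis1 read 11.10, 10.98 and 11.06 at 0 h, 10.01, 9.93 and 10.12 at 2 h and 10.98, 11.11 and 10.94 at 8 h. It fell by 1.03 at 2 h (SE 0.0772, adjusted p = 6e-11), and its arrays of 0 and 8 h overlapped. Pbx3 read 11.76, 11.56 and 11.56 at 0 h and 10.35, 10.46 and 10.45 at 4 h, lower, with a difference of -1.21 (SE 0.0933, adjusted p = 4.72e-11). Pbx2 was lower at 2 h by a difference of -0.79 and at 4 h by a difference of -0.80, and had come to 10.77, 10.79 and 10.71 at 8 h. Over 0 to 8 h the 18 Hox members were lowest at 2 or 4 h, but were themselves counted as lower at 4 h. Meis1, Pbx3 and Pbx2 were named for their large changes, and a likeness in timing was not tested.

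Pknox2 fell later, from 9.92, 9.72 and 9.67 at 0 h to 8.30, 8.49 and 8.18 at 8 h (-1.44, SE 0.107, adjusted p = 1.89e-11), and in the low-Isl1 arrays it was lower than at 0 h by a difference of -1.85. In the high-Isl1 arrays at 48 h Pknox2 was lower than in ISL1 cells at 0 h by a difference of -1.68. In all, 4 of the 10 TALE genes were lower there and none higher, beside 18.8% and 14.8% of all probe sets. High-Isl1 arrays had 6 TALE genes higher and none lower than low-Isl1 arrays at 48 h, beside 14% and 13.9% of all probe sets. Pbx3 was higher by 1.07 (SE 0.0933) and Meis1 by 0.81 (SE 0.0772). At 0 h ISL1 cells had 2 higher, Pknox1 among them (0.27), and 1 lower, Pbx4 (-0.30), beside 15.4% and 10.2% of all probe sets. The effect on Pbx3 differed between the times by 0.83 (SE 0.132, adjusted p = 2.12e-05).

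**Figure D5:**
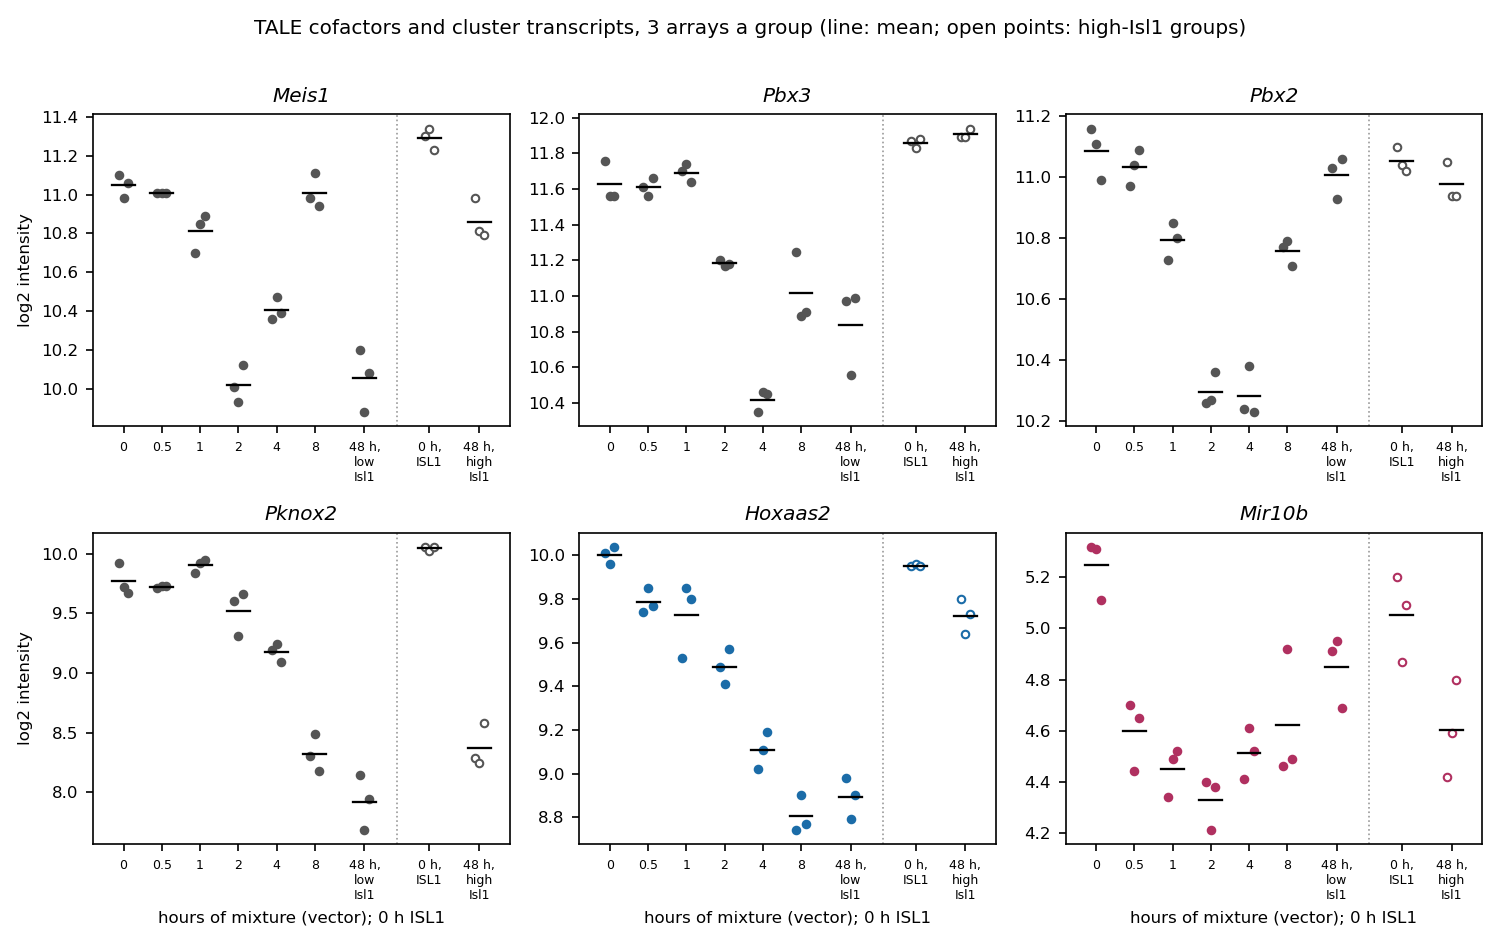
Log2 intensity of the TALE cofactors Meis1, Pbx3, Pbx2 and Pknox2 and of the cluster transcripts Hoxaas2 and Mir10b in each of 27 arrays, in the same layout: vector cells by hours of mixture, the low-Isl1 arrays at 48 h, and as open points ISL1 cells at 0 h and the high-Isl1 arrays at 48 h. Black lines are group means; the vertical axes differ. Mir10b was 5.11 to 5.32 in vector cells at 0 h and 4.44 to 4.70 at 0.5 h.

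Of the genes inside or beside the clusters, 21 of 31 were measured by 23 probe sets. At 4 h 6 were lower and 1 higher, beside 22.3% and 17.3% of all probe sets, and at 8 h 7 and 1, beside 21.7% and 23.8%. Mir10b, the gene of miR-10b shown above, read 5.32, 5.31 and 5.11 at 0 h, 4.70, 4.44 and 4.65 at 0.5 h and 4.40, 4.21 and 4.38 at 2 h. It was lower, with a difference of -0.65 at 0.5 h, before any Hox member passed, and by a difference of -0.92 at 2 h (SE 0.118, adjusted p = 7.3e-07). ISL1 cells at 0 h, in the same run as vector cells at 0 h, read 5.20, 4.87 and 5.09, and all arrays of 0.5 to 8 h read 4.92 or less. For Mir10b, run and time cannot be told apart at this step. Mir10a, of the same seed and named after its values were seen, read 4.27, 4.10 and 4.23 at 0 h and 4.27, 4.38 and 4.38 at 2 h, and Mir196b did not pass either. Mir196a-2 was lower at 2 h by a difference of -0.51 (SE 0.117, adjusted p = 0.00121) and at 8 h by a difference of -0.38 (SE 0.117), while Mir196a-1, the other gene of miR-196a, was higher at 8 h by 0.44 (SE 0.104, adjusted p = 0.00104). Whether these probe sets read the precursor or the mature miRNA was not tested. Mir10b and Mir10a read far below the table's median of 7.97, towards its lowest value of 3.348.

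Hoxaas2, an antisense transcript of the HoxA cluster, fell from 10.01, 9.96 and 10.04 at 0 h to 9.02, 9.11 and 9.19 at 4 h and 8.74, 8.90 and 8.77 at 8 h (-1.20, SE 0.0753, adjusted p = 8.18e-13). In the high-Isl1 arrays it read 9.80, 9.64 and 9.73, above the low-Isl1 arrays at 8.98, 8.79 and 8.90 by 0.83 (SE 0.0753, adjusted p = 2.32e-09). In ISL1 cells at 0 h Hoxaas2 read 9.95, 9.96 and 9.95, next to the vector arrays of 0 h, and the difference did not pass the test. The span of Hoxaas2 overlaps that of Hoxa3 in RefSeq, and the strand each probe set reads was not tested.

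Of 17 measured upstream regulators of Hox genes 3 were higher and 2 lower at 4 h, beside 17.3% and 22.3% of all probe sets. Egr2, which switches on Hoxa2 and Hoxb2 in the hindbrain, read 7.78, 7.65 and 7.84 at 0 h, 12.09, 12.34 and 12.29 at 1 h and 9.52, 9.79 and 9.65 at 4 h. It was higher by 4.48 at 1 h (SE 0.113, adjusted p = 2.68e-20), when Hoxb2 was lower, with a difference of -0.40 and Hoxa2 had not passed. Cyp26b1, which degrades retinoic acid, a signal that turns on Hox genes, was higher at 2 h by 0.84 and at 4 h by 1.66 (SE 0.0747, adjusted p = 1.51e-15). Rarg, a retinoic acid receptor, was lower in the low-Isl1 arrays than at 0 h by a difference of -1.40 (SE 0.0619). Of 41 probe sets of Polycomb and Trithorax genes, which keep Hox genes silent or active, 16 were lower and 8 higher at 4 h, beside the same 22.3% and 17.3%. The largest changes at 4 h were those of Pcgf1 (-1.35) and Pcgf2 (-1.24), both Polycomb subunits, and at 2 h Dot1l, a histone methyltransferase, was higher by 1.63. Pcgf5, a further Polycomb subunit, was lower at 8 h by a difference of -1.66. Of 26 other homeobox patterning genes 7 were lower and 4 higher at 4 h, beside the same shares, with Dlx2 higher by 1.30 and Zfhx4 lower, with a difference of -1.24. In ISL1 cells at 0 h Shox2 (1.24) and Emx2 (1.18) were higher than in vector cells and in all 4 genes of this list were higher and 5 lower, beside 15.4% and 10.2% of all probe sets.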

How the data were processed

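The deposited table holds 1 log2 value per probe set and array for 27 arrays, which the authors made by RMA (background correction, normalization across arrays and probe summary), per the submitters' processing notes. The version, the annotation and any separate handling of the array runs are not stated there. The number of arrays limits the precision, and no column was left unmapped. Of 28853 probe sets, 21789 had 1 symbol in the platform annotation and were tested, 1621 had several and 5443 had none.

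The fit (limma 3.58.1, R 4.3.3, lmFit and eBayes) gave each group of the 27 arrays its mean, for 15 comparisons and an F test over vector cells at 0 to 8 h. P-values were adjusted by Benjamini-Hochberg over all 21789 probe sets of a comparison, with a threshold of 0.05, and the code was tested on simulated data. Fold changes are differences of RMA log2 values. The members and gene lists were chosen with earlier results of these data known. Named were any Hox member, in each comparison per-array values for the 4 called members with the largest change and for those against the majority, in each other list the 2 called genes with the largest change, and Isl1. All other names were chosen after their values were seen.

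Same-numbered arrays deviated together (all 3 correlations over 0.1) in 4 of 36 pairs of groups. Among these were the 0.5 h and 1 h vector groups and both 48 h groups, whose comparisons were refitted with the replicate number as a block. Alternatives covered the probe sets tested, scaling, the fit, array weights, the replicate block, each array left out, the fit without 48 h arrays and the 48 h groups as titled. Promoter and miRNA sequences came from RefSeq tables of GRCm38.p6.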

Additional observations from a re-analysis of the deposited data

Results flagged for a closer look

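The Isl1 effect differed between 0 h and 48 h for 5 of the 37 Hox members, by limma's test of the difference itself. In that test 24.5% of all probe sets were called. Of the members 10.8% were higher and 2.7% lower, beside 11.4% and 13.1% of all probe sets. For Hoxa2 it was higher at 48 h (0.604) than at 0 h (-0.383) by 0.987 (SE 0.1, adjusted p = 2.39e-08). For Hoxa3 it was higher at 48 h (0.0205) than at 0 h (-0.593) by 0.613 (SE 0.127, adjusted p = 0.000539). For Hoxa5 the effects of 0.103 and -0.404 differed by 0.507 (SE 0.126, adjusted p = 0.00309). For Hoxa6 the effects of 0.144 and -0.349 differed by 0.492 (SE 0.126, adjusted p = 0.00392). For Hoxd8 the effect was lower at 48 h (-0.376) than at 0 h (-0.055), by -0.321 (SE 0.112, adjusted p = 0.0368). The Hoxd8 call was lost in 10 of the 27 fits without 1 array. With the 48 h groups read as titled, Hoxd8 turns direction and passes, and Hoxa2 turns direction and does not pass. Hoxa5 and Hoxa6 do not pass, and Hoxa3 keeps its call.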

How the results depend on the processing

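Of the 146 calls of Hox members over all 15 comparisons, 145 held with the replicate block over all groups, 144 with array weights, 141 with quantile normalization, 140 with an intensity trend and robust prior, 132 with arrays centred on their medians and 126 with only the groups of a comparison fitted. With 1 probe set per gene 146 held, with all probe sets 143, and without dim probe sets 132 of the 132 still tested. None of these turned a call's direction, nor did leaving out any array. The replicate block over all groups lost Hoxa7 at 1 h (adjusted p = 0.0523) and no other call, and the block within a pair of groups held 9 of 10. Counts of members past the test that moved by over 1.5 times were, at 0.5 h, 1 with array weights, and at 1 h, 5 when centred and 4 with only those groups. In the step from 0.5 to 1 h they were 5 without dim probe sets, 1 when centred, 0 with only those groups (limma; 3 in the fit of all groups), 5 with array weights and 1 to 4 without an array each. The step from 2 to 4 h gave 13 with array weights, the step from 4 to 8 h gave 5 when centred and 5 with only those groups, and the F test gave 28 with array weights. Leaving out each array in turn gave 16 to 20 members at 2 h, 16 to 19 at 4 h, 15 to 17 at 8 h, 10 to 13 in the low-Isl1 arrays against 0 h, 10 to 12 for ISL1 against vector cells at 0 h and 7 to 9 at 48 h. The cause of these moves was not tested, and apart from the F test no share of all probe sets is given for these fits. Reading the 48 h groups as titled swaps which arrays stand for which construct. Of 40 member values 13 then turned, 7 of them by construction, and not all of the others passed. The arrays labelled ISL1 gave 13 members past the test against ISL1 cells at 0 h, and the difference of the effects gave 11. Neither count is set against a share of all probe sets in that reading. Against 0 h vector cells, values as titled were -0.461 for Hoxd4, -0.16 for Hoxd3 and 0.438 for Shox2. In the 48 h comparison they were -0.334 for Hoxb2, 0.538 for Hoxc8, 0.376 for Hoxd8, 0.719 for Hoxd4, 0.486 for Hoxd3, -0.604 for Hoxa2, 0.392 for Hoxa10, -1.07 for Pbx3, -0.806 for Meis1, 0.792 for Dot1l, 0.638 for Pcgf6, 0.891 for Egr2, -0.864 for Nr2f1, -0.835 for Hoxaas2, -0.429 for Skap2, -1.66 for Emx2, -1.56 for Shox2 and -5.11 for Isl1. In the step from 8 h they were 0.0855 for Hoxa2, -0.177 for Hoxa10 and 4.74 for Isl1. For the difference of the effects they were 0.431 for Hoxd8, -0.222 for Hoxa2, -1.3 for Pbx3, -0.645 for Meis2, 0.37 for Pcgf6, 0.742 for Egr2, -0.554 for Rarg, -0.787 for Hoxaas2, -0.721 for Zfhx4 and -0.358 for Prrx1. The fit without the 48 h arrays and the block within a pair of groups were chosen after seeing the data, and the former held 104 of 106 calls. With 3 arrays a group, members near the array's lower signal range could change without passing the test.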
